A study of Cicer arietinum with 24 samples.

Results

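The transcriptome of mature leaf was compared with that of whole seeds at the last stages of development, S6 and S7, in chickpea (Cicer arietinum). An entry of the deposited tables was included when it named at least 1 gene identifier and reached 1 FPKM in leaf, at S6 or at S7. FPKM is the number of sequenced fragments scaled by the exon length of the gene and by the size of the library. In all, 17001 of 27966 entries with a gene identifier were included, and the other 10965 stayed under 1 FPKM in all 3 groups. All plants were of the large-seeded kabuli cultivar JGK 3, were grown in the field and have no treatment in their labels. Leaves had been collected while the seeds of the plants were at mid maturation. S7 was the late-maturation stage, and S6 was the sampled stage just before it. Each group had 3 samples, but 1 value per entry represented all 3, so that no spread between samples, no error and no p-value could be obtained. The differences below describe these 3 pooled values only.

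In a leaf many of the most abundant transcripts serve photosynthesis and carbon metabolism. In a legume seed at late maturation cell division has ended, storage proteins and oil have been laid down in the cotyledons, and the embryo makes protective proteins as it loses water. Part of the transcripts present at this time stays in the dry seed and is available at germination.

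The entries carried gene identifiers only, and 0 of 28269 identifiers matched the name table used here. Genes are therefore given by identifier, and a function is stated only where the study names it. For the same reason the labels leaf and seed could not be checked against marker genes of mesophyll or of maturing seed. Of the included entries, 1577 joined several identifiers and 1814 shared their identifier with another entry. How many reads stand behind a value is not known, and an exact 0 can be a failed estimate rather than absence, for which reason these entries are called listed at 0. In whole organs fewer cells of a type and less RNA per cell cannot be told apart.

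Leaf and late maturation seeds shared most of their expressed genes. At 1 FPKM or more, 15657 entries were expressed in leaf, 14299 at S6 and 14247 at S7. All 3 groups expressed 12822 entries, 2283 were expressed in leaf only and 1006 at both seed stages only. A further 552 were expressed in leaf and at 1 seed stage, and 338 at 1 seed stage alone.

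A difference was taken between log2(FPKM + 1) in seed and in leaf, and the limit was 2-fold, which is 1 on this scale. The scale understates differences of low values. On the mean of S6 and S7, 5137 entries (30.2%) were at least 2-fold higher in seeds and 5344 (31.4%) at least 2-fold lower. With each stage set against leaf separately, 4568 entries (26.9%) were at least 2-fold higher at both stages and 4929 (29.0%) at least 2-fold lower at both. Both stages lay within 2-fold of leaf for 5567 entries (32.7%).

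The seed stages mostly went the same way, although both were set against the same leaf value and are therefore not independent. At S6 alone 5078 entries were higher and 5339 lower than leaf, and at S7 alone 5185 were higher and 5339 lower. Only 510 entries were higher at S6 without reaching the limit at S7, and 617 were higher at S7 without reaching it at S6. Of the lower entries, 410 passed the limit at S6 only and 410 at S7 only. The sign of the difference was opposite at S6 and S7 for 966 entries, and 10 of these were at least 2-fold from leaf at both stages.

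The balance of higher and lower entries depended on how the 3 groups were scaled to each other. The summed FPKM of all entries with an identifier was 1300269 in leaf, 2281178 at S6 and 2379437 at S7. As deposited, the median difference over the included entries was 0.06 on the mean of both stages, 0.04 at S6 and 0.06 at S7, and 49.0% of the entries past the limit on the mean were higher in seeds. With all groups scaled to the same sum, the median difference was -0.73, 3013 entries were higher and 7608 lower, and the share of higher entries was 28.4%. With the same upper quartile the share was 41.0% and the median difference -0.25, and with the median ratio the share was 46.1% and the median difference -0.05. The number of higher against lower entries is thus relative to the scaling. Differences of at least 32-fold are larger than these median shifts, but the 32-fold counts below are as deposited and were not repeated under other scalings. Entries near that limit, which is 5 on this scale, can cross it. With the same sum, the smaller difference of Ca_27517 went from 5.63 to 4.87 and that of Ca_12649 from -4.86 to -5.47.

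**Figure D1:**
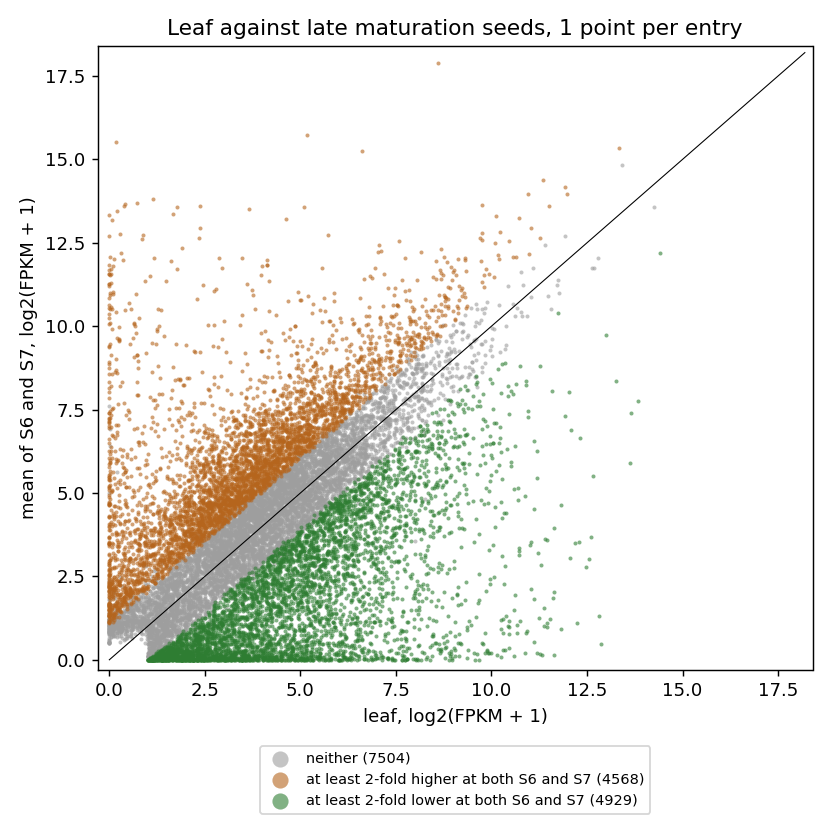
Each point is 1 of the 17001 entries, with its level in leaf on the x axis and its mean level at S6 and S7 on the y axis, both as log2(FPKM + 1), and the line marks equal levels. The 4568 entries at least 2-fold higher at both stages reach far up at leaf levels near 0, and the 4929 lower entries extend along the x axis.

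The extremes were not symmetric. At least 4-fold at both stages, 2043 entries were higher and 2877 lower, and at least 32-fold 296 were higher and 543 lower. At least 128-fold the numbers were 142 and 177, and at least 1024-fold 54 were higher and 16 lower. As deposited, the lower entries were thus more numerous up to 128-fold, and the higher entries at 1024-fold and above. The counts at 4-fold and above were not repeated with another scaling or pseudocount, so it is not known whether this order depends on them. At the 2-fold limit this order turned with a minimum of 5 FPKM (4293 higher and 4038 lower at both stages) and among entries above 0 in all 3 groups (4425 and 4300).

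Abundance was also concentrated in fewer transcripts in the seeds. The most abundant entry held 1.68% of the summed FPKM in leaf, 9.45% at S6 and 11.4% at S7. The 100 most abundant entries held 30.3%, 46.7% and 49.8% in the same order. Both seed stages therefore lay above leaf in both measures. Of the 100 most abundant entries, 83 were shared by S6 and S7, and 19 were shared by leaf and both seed stages.

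The highest single value belonged to Ca_06877, with 388 FPKM in leaf, 215672 FPKM at S6 and 271919 FPKM at S7. It was an abundant transcript in leaf already, and its differences from leaf were 9.11 at S6 and 9.45 at S7. Ca_18289 had 34.8 FPKM in leaf, 50924 FPKM at S6 and 59236 FPKM at S7. The entry joining Ca_13920 and Ca_13921 had 96.7 FPKM in leaf, 32424 FPKM at S6 and 46044 FPKM at S7. The last 2 had differences between 8.37 and 10.69, and all 3 were far above leaf at both stages and higher at S7 than at S6.

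Other transcripts were abundant in both organs. Ca_28211 had 10938 FPKM in leaf, 47583 FPKM at S6 and 17826 FPKM at S7, so that it passed the 2-fold limit at S6 (2.12) but not at S7 (0.70). Ca_13501 had 10335 FPKM in leaf, 34684 FPKM at S6 and 49126 FPKM at S7, with differences of 1.75 and 2.25. A further entry of Ca_13501 went the same way at a lower level, with 303 FPKM in leaf, 843 FPKM at S6 and 1192.5 FPKM at S7. With the same sum, the smaller of both differences of the higher Ca_13501 entry was 0.94, under the limit.

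The most abundant leaf entry joined Ca_03007, Ca_03008 and Ca_03009, and had 21814 FPKM in leaf, 5479 FPKM at S6 and 3953 FPKM at S7. The next, joining Ca_21944 and Ca_21945, had 19663 FPKM in leaf, 14182 FPKM at S6 and 10468 FPKM at S7. Its differences of -0.47 and -0.91 stayed within 2-fold at both stages, but with the same sum both passed the limit, the smaller at -1.28. These leaf transcripts thus remained among the abundant ones of the seed.

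The other leading leaf transcripts were much lower in seeds. The entry joining Ca_07447 and Ca_07450 had 14630.3 FPKM in leaf, 198 FPKM at S6 and 236 FPKM at S7. Ca_13533 had 12903 FPKM in leaf, 272 FPKM at S6 and 105 FPKM at S7. Ca_22539 had 12695 FPKM in leaf, 71.1 FPKM at S6 and 48.0 FPKM at S7. Both seed stages lay on the same side of leaf for all 3 entries, with differences between -8.02 and -5.56.

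Among entries above 0 in all 3 groups, the largest seed excess at both stages was that of Ca_17852. This transcript had 0.120 FPKM in leaf, 41521 FPKM at S6 and 52177 FPKM at S7, which gave differences of 15.18 and 15.51. It was therefore near 0 in leaf and among the 5 most abundant transcripts at both seed stages. A further entry of Ca_17852 was listed at 0 in leaf and had 2.17 FPKM at S6 and 1.57 FPKM at S7, so that nearly all of the abundance lay on 1 entry.

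Next in rank, Ca_21274 had 0.301 FPKM in leaf, 12178 FPKM at S6 and 12831 FPKM at S7. Ca_04846 had 0.325 FPKM in leaf, 11749 FPKM at S6 and 14573 FPKM at S7. Ca_08450 had 0.159 FPKM in leaf, 12449.6 FPKM at S6 and 10031 FPKM at S7. For these genes S6 and S7 differed little from each other beside their distance from leaf. Ca_01856 had 0.0501 FPKM in leaf, 11150.2 FPKM at S6 and 7805 FPKM at S7 on 1 of its entries, and its further entry is not given here. Ca_12606 had 0.654 FPKM in leaf, 15648 FPKM at S6 and 11374 FPKM at S7. The remaining 4 of the 10 highest ranked entries, Ca_09330, Ca_03732, Ca_09387 and Ca_04763, had leaf values from 0.0124 to 1.19 FPKM and late seed values from 3959.8 to 15240.3 FPKM. All 10 went the same way at S6 and S7, with differences from 11.79 (Ca_04763 at S6) to 15.51.

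These genes differed in when they reached their late level. Ca_01856 and Ca_12606 already had 4262 and 2843 FPKM at S5, the mid-maturation stage. Ca_17852 had 24.3 FPKM at S5, Ca_21274 44.8 FPKM and Ca_03732 27.6 FPKM. The last 3 genes thus differed between S5 and S6 by more than 100 times, while the first 2 were already at a high level at S5.

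Entries listed at 0 in leaf were 203 of those included. The highest of them at both seed stages was Ca_17730, with 7891 FPKM at S6 and 13379 FPKM at S7, and Ca_15742 had 6437 FPKM at S6 and 6830.5 FPKM at S7. The stages agreed for both genes. Ca_06570 was listed at 0 in leaf and at S6, but had 78.1 FPKM at S5 and 37952 FPKM at S7, so that the stages did not agree. In all, 7 entries were listed at 0 at S6 with 10 FPKM or more at S7, and 9 the reverse.

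Among the leaf transcripts, Ca_26679 had the largest difference at both stages. It had 7426 FPKM in leaf, 0.463 FPKM at S6 and 0.323 FPKM at S7, with differences of -12.31 and -12.45. Earlier in the seed it had 68.7 FPKM at S1 and at most 0.611 FPKM from S2 to S5. Its transcript was thus already low in seeds well before late maturation. Ca_03507 was alike in this, with 2803 FPKM in leaf, 37.4 FPKM at S1, at most 0.540 FPKM from S2 to S5, 0.988 FPKM at S6 and 1.30 FPKM at S7.

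The other 8 of the 10 lowest ranked genes were expressed in seeds up to S5. Ca_17948 had 4830.0 FPKM in leaf and from S1 to S5 lay between 706 and 2015 FPKM, but 1.60 FPKM at S6 and 0.804 FPKM at S7. Ca_09139 had 3640.3 FPKM in leaf and from S1 to S5 lay between 278 and 580.0 FPKM, but 1.35 FPKM at S6 and 0.506 FPKM at S7. Ca_08273, which the study lists under grain filling, had 2549 FPKM in leaf, between 100.3 and 225 FPKM from S1 to S5, 0.137 FPKM at S6 and 0.0573 FPKM at S7. For these genes the distance from leaf was much smaller from S1 to S5 than at both late stages, where it was more than 1024-fold on this scale.

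The remaining 5 of them were Ca_02276, Ca_03005, Ca_13319, Ca_23106 and Ca_14824. In leaf they had between 1542 and 7182 FPKM, and at S6 between 0.0901 and 0.771 FPKM. At S7 they had between 0.0549 and 3.57 FPKM, and the highest of these values was that of Ca_03005, which had 0.349 FPKM at S6. All 10 genes went the same way at both stages, with differences between -12.45 and -10.25.

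**Figure D2:**
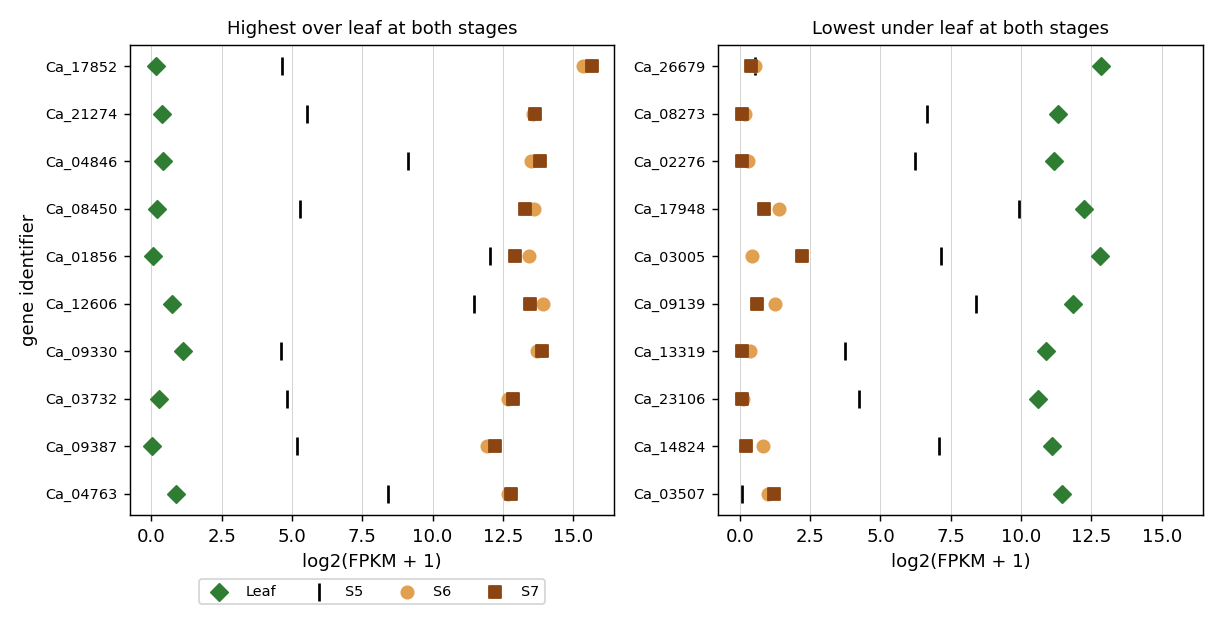
Levels of the 10 entries highest over leaf and the 10 lowest under leaf at both stages, as log2(FPKM + 1) on the x axis, with 1 marker each for leaf, S5, S6 and S7. S6 and S7 lie next to each other in every line (the widest gap is that of Ca_03005), while S5 lies between leaf and the late seeds for most genes and near the late level for Ca_26679 and Ca_03507.

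Values listed at 0 at both late seed stages were found for 294 entries. Ca_21122 had 814 FPKM in leaf and 4562 FPKM at S5, and was listed at 0 at S6 and S7. Ca_13477 had 757 FPKM in leaf and 7.61 FPKM at S5, and Ca_19254 had 496 FPKM in leaf and was listed at 0 at S4 and S5 as well. The 3 genes agree between S6 and S7 but differ in their earlier course.

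The sets of strongly different entries were then followed over all 8 groups, since the earlier seed stages had not been used to choose them. The 296 entries at least 32-fold higher at both late stages had a median of 0.655 FPKM in leaf, 1.90 FPKM at S1, 2.52 FPKM at S3, 8.11 FPKM at S4 and 35.3 FPKM at S5. Their medians at S6 and S7, which chose them, were 467 and 443 FPKM. Their level thus increased from S3 on, with the widest step between S5 and S6. At S6, 180 of the 296 (60.8%) were at least 8-fold above S5 on log2(FPKM + 1), against 728 of all 17001 entries (4.28%). This set was chosen for high S6 values, so that the share is a description.

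At 1 FPKM or more at every stage from S1 to S5 were 149 of the 296 (50.3%), against 81.5% of all 17001 entries, and 12 (4.05%) stayed under 1 FPKM at all 5 stages, against 5.52%. The highest of the 8 values was at S6 or S7 for 273 entries (92.2%), against 35.3% of all entries, which the choice of the set favours, and at an earlier seed stage for 23 (7.77%), against 38.8%. In leaf, 43.9% of the set reached 1 FPKM, against 15657 of all 17001 entries, a share that the choice of the set lowers.

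The 543 entries at least 32-fold lower at both late stages had a median of 173 FPKM in leaf. Their medians lay between 11.5 and 15.9 FPKM from S1 to S5, and were 0.534 FPKM at S6 and 0.374 FPKM at S7. Seeds from S1 to S5 thus had these transcripts at a moderate, steady median level that was much lower at S6 and S7. At every stage from S1 to S5, 395 of the 543 (72.7%) had 1 FPKM or more, against 13848 of all 17001 entries (81.5%). At S6, 220 (40.5%) were at least 8-fold below S5, against 1059 (6.23%) of all entries, again in a set chosen for low S6 values. Leaf had the highest of the 8 values for 501 of them (92.3%), against 25.9% of all entries, which the choice of the set favours, and a seed stage from S1 to S5 for 42 (7.73%), against 38.8%.

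The 5567 entries within 2-fold of leaf at both stages had medians between 13.3 and 14.8 FPKM in all 8 groups. Among them, 843 differed from leaf by less than 0.25 at both stages. Among the 3 most abundant of these was the entry joining Ca_15995 and Ca_15996, with 1627 FPKM in leaf, 1516 FPKM at S6 and 1477 FPKM at S7. Ca_07038 was equally close, with 1523 FPKM in leaf, 1611 FPKM at S6 and 1605 FPKM at S7, although it had only 195 FPKM at S3. Ca_01140 had 1032 FPKM in leaf, 942 FPKM at S6 and 1032 FPKM at S7. Equal levels in leaf and late seed therefore did not mean an equal level in all seed stages. The closeness depended on the scaling, since the smaller difference of Ca_07038 was -0.02 with the median ratio, -0.24 with the upper quartile and -0.73 with the same sum.

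**Figure D3:**
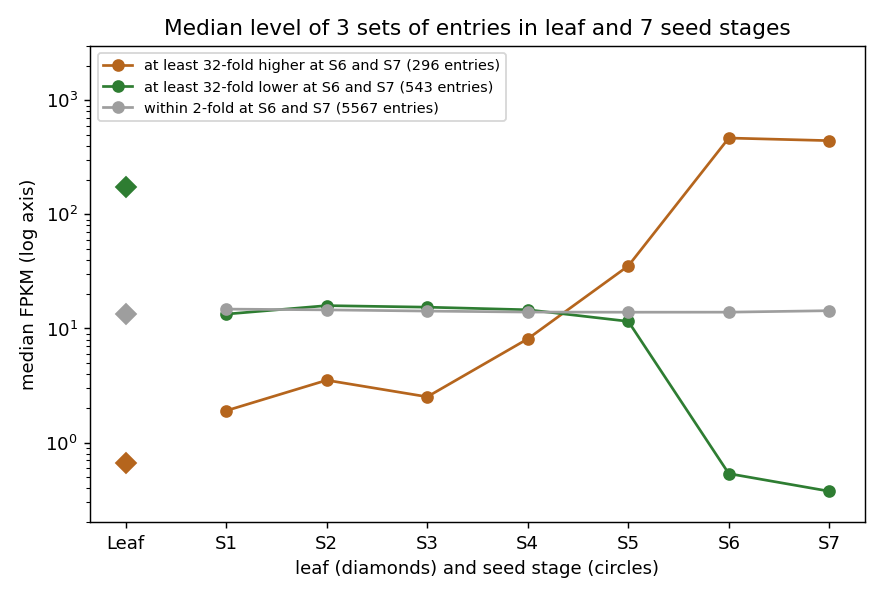
Median FPKM on a log axis in leaf (diamonds) and at seed stages S1 to S7 (circles) for the 296 entries at least 32-fold higher, the 543 at least 32-fold lower and the 5567 within 2-fold of leaf at both late stages. The higher set goes from 35.3 FPKM at S5 to 467 FPKM at S6, and the lower set from 11.5 to 0.534 FPKM.

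Values near the limits show how little separates entries on either side of them. Just inside the 1 FPKM minimum was Ca_27593, with 0.0973 FPKM in leaf, 0.978 FPKM at S6 and 1.00 FPKM at S7, and just outside it was Ca_04889, with 0.998 FPKM in leaf. Just inside the 2-fold limit on the mean was Ca_27239, with 5.99 FPKM in leaf, 13.3 FPKM at S6 and 12.7 FPKM at S7. Just outside it was Ca_17763, with 58.6 FPKM in leaf, 109 FPKM at S6 and 128 FPKM at S7. For both genes 1 stage alone passed the limit. On the leaf side, the entry joining Ca_10446 and Ca_10447 was just inside, with 4.97 FPKM in leaf, 1.58 FPKM at S6 and 2.46 FPKM at S7, and Ca_16725 was just outside, with 10.8 FPKM in leaf, 2.69 FPKM at S6 and 8.46 FPKM at S7.

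To describe biological processes, genes listed by the study under cell cycle, differentiation, grain filling and desiccation, and under cell growth and seed weight QTLs (quantitative trait loci), were followed. Part of each list had been chosen by expression in these seed libraries, so its direction is no independent evidence. The shares below are over listed entries with at least 1 FPKM in any of the 3 groups, and a list can pass this minimum through the group in which it is high. Beside them stand the shares over all 17001 entries, 26.9% higher and 29.0% lower at both stages.

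Genes of desiccation, the acquisition of tolerance to water loss, were listed with 162 members, of which 138 reached the minimum. At both stages 47 of these (34.1%) were at least 2-fold higher than leaf and 41 (29.7%) at least 2-fold lower, and the median difference was 0.35, against 0.06 for all entries. The list thus held about as many leaf-high as seed-high genes. Its median difference was 0.29 at S6 and 0.31 at S7. Members listed with a differentially methylated region, a choice that does not use expression, had a median of 0.05, and 20 were higher and 20 lower.

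The extremes of the desiccation list were far apart. At least 32-fold at both stages, 14 of the 138 entries (10.1%) were higher, against 1.74% of all entries, and 8 (5.80%) were lower, against 3.19%. Ca_04763 had 0.847 FPKM in leaf, 6559 FPKM at S6 and 7079.6 FPKM at S7. Ca_05125 had 0.893 FPKM in leaf, 2429 FPKM at S6 and 2765 FPKM at S7. At S5 these genes had 342 and 653 FPKM already. Ca_23132 had 0.491 FPKM in leaf, 1938 FPKM at S6 and 1120.0 FPKM at S7.

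On the other side, Ca_23903 had 387 FPKM in leaf, 0.191 FPKM at S6 and 0.309 FPKM at S7. Ca_18347 had 1071 FPKM in leaf, 5.64 FPKM at S6 and 3.78 FPKM at S7, and Ca_04027 had 225 FPKM in leaf, 1.21 FPKM at S6 and 1.17 FPKM at S7. These desiccation-listed genes were leaf transcripts with little expression at either late stage. Over all 162 listed entries, the median level was 17.2 FPKM in leaf, 12.7 FPKM at S6 and 15.2 FPKM at S7. The median level was thus higher in leaf, while the median difference, taken over the 138 entries at the minimum only, pointed to seed.

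Grain filling, the phase in which reserves are deposited, had 163 listed members and 137 at the minimum. At both stages 31 (22.6%) were higher and 43 (31.4%) lower than leaf. The median difference was -0.42, with -0.38 at S6 and -0.46 at S7. With all members, this was the only one of the 6 lists with a median below that of all entries, and it stayed below under each of the 3 scalings. Members listed with a differentially methylated region had a median of -0.08, with 19 higher and 20 lower, nearer to the median of all entries.

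Grain filling also held strongly seed-high genes. At least 32-fold at both stages, 8 of the 137 entries (5.84%) were higher, against 1.74% of all entries. Lower by as much were 6 (4.38%), against 3.19%. Ca_01026 had 0.293 FPKM in leaf, 3489 FPKM at S6 and 4698 FPKM at S7. Ca_12229 had 0.0514 FPKM in leaf, 1319 FPKM at S6 and 1595 FPKM at S7, but was higher before that, with 3680.0 FPKM at S5. Ca_07751 had 0.0134 FPKM in leaf, 3058 FPKM at S6 and 1349.5 FPKM at S7, and was listed at 0 at S5. In the leaf direction, Ca_02300 had 188 FPKM in leaf, 0.206 FPKM at S6 and 0.111 FPKM at S7. Ca_09586 had 356 FPKM in leaf, but its late values of 3.26 FPKM at S6 and 0.251 FPKM at S7 were further apart than in most genes. The median level of the whole list was 12.1 FPKM at S5, 6.51 FPKM in leaf, 7.79 FPKM at S6 and 7.08 FPKM at S7.

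Cell cycle genes were listed with 318 members, and 217 reached the minimum. At both stages 59 (27.2%) were higher and 45 (20.7%) lower, with a median difference of 0.13. At least 32-fold at both stages, 3 entries (1.38%) were higher, against 1.74% of all entries, and 4 (1.84%) lower, against 3.19%. Ca_14758 had 39.3 FPKM in leaf, 1397 FPKM at S6 and 1899 FPKM at S7, and Ca_02251 had 146 FPKM in leaf, 1.12 FPKM at S6 and 0.268 FPKM at S7. Over all listed entries the median level was 2.66 FPKM in leaf, 1.62 FPKM at S6 and 1.80 FPKM at S7, against 10.4 FPKM at S1. Over all 27966 entries with an identifier it was 2.42 FPKM in leaf, 1.20 FPKM at S6, 1.17 FPKM at S7 and 3.13 FPKM at S1. As for desiccation, the median level was higher in leaf although the median difference was above 0. The levels are over all 317 listed entries and the difference over the 217 at the minimum, so these medians describe unlike sets.

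Differentiation genes numbered 775, with 583 at the minimum. At both stages 176 (30.2%) were higher and 164 (28.1%) lower, and the median difference was 0.28. Ca_21274, Ca_03732 and Ca_09387, described above, were the most seed-high members. Ca_15586 had 1228 FPKM in leaf, 7.288 FPKM at S6 and 8.0004 FPKM at S7, and Ca_11738 had 146 FPKM in leaf, 0.553 FPKM at S6 and 0.438 FPKM at S7. With a differentially methylated region the median was 0.10.

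Cell growth genes numbered 195, of which 138 reached the minimum, and 133 of the 195 were also on the differentiation list. At both stages 37 (26.8%) were higher and 42 (30.4%) lower, and the median difference was 0.41. More entries were thus past the limit on the leaf side although the median lay on the seed side. The entry joining Ca_05706 and Ca_05707 had 11.1 FPKM in leaf, 3475 FPKM at S6 and 1729 FPKM at S7. Ca_05486 had 165 FPKM in leaf, 1.39 FPKM at S6 and 1.22 FPKM at S7.

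Genes within seed weight QTLs numbered 1027, of which 804 entries reached the minimum. At both stages 211 (26.2%) were higher and 231 (28.7%) lower, with a median difference of 0.13, near the shares and the median of all entries. Single members were nevertheless far apart. Ca_09330 had 1.19 FPKM in leaf, 13603 FPKM at S6 and 15240.3 FPKM at S7, and Ca_09224 had 0.0119 FPKM in leaf, 1569 FPKM at S6 and 1361 FPKM at S7. In the other direction, Ca_16018 had 3148 FPKM in leaf, 4.15 FPKM at S6 and 1.55 FPKM at S7.

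**Figure D4:**
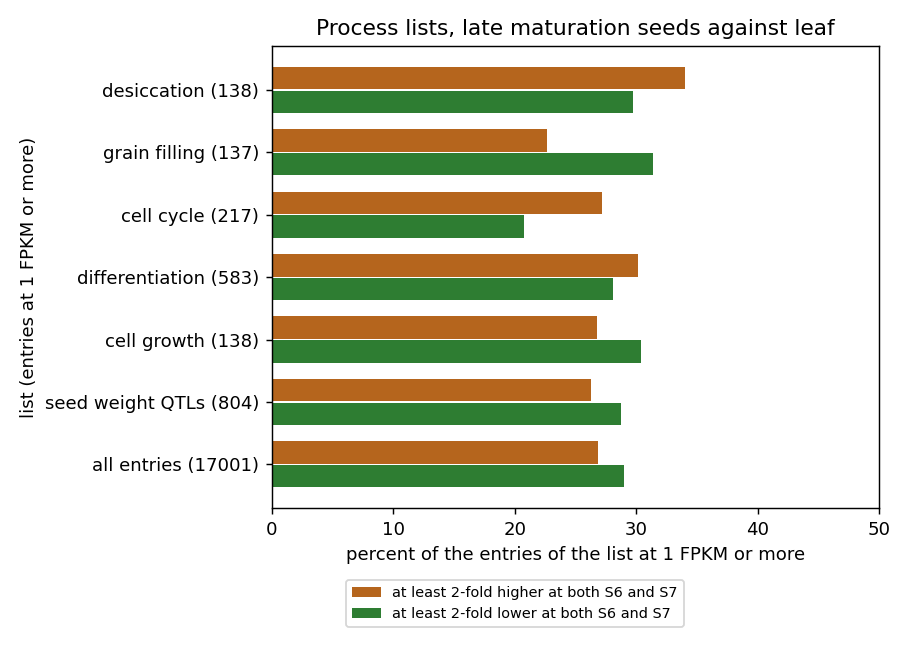
Percent of the expressed entries of each list, and of all 17001 entries, that were at least 2-fold higher (brown) or lower (green) than leaf at both S6 and S7, with the number of entries in brackets. Desiccation has the longest brown bar (34.1%), cell cycle the shortest green bar (20.7%) and grain filling the shortest brown bar (22.6%).

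Genes of DNA methylation were followed because methylation changes along seed development were the subject of the study. Names are those the study uses. CaMET1, the counterpart of the methyltransferase that copies CG methylation after replication, had 1.34 FPKM in leaf, 0.309 FPKM at S6 and 0.571 FPKM at S7. CaCMT2, a chromomethylase, had 1.17 FPKM in leaf, 0.0653 FPKM at S6 and 0.0484 FPKM at S7. On log2(FPKM + 1), CaCMT2 was the only methyltransferase gene at least 2-fold lower at both stages. This scale understates differences of values as low as those of CaMET1 and CaCMT3. With the same sum CaMET1 passed that limit as well, with a smaller difference of -1.02. CaCMT3 stayed under 1 FPKM in all 3 groups, with 0.308 FPKM in leaf, 0.0126 FPKM at S6 and 0.0554 FPKM at S7. CaCMT1 had 1.72 FPKM in leaf, 0.833 FPKM at S6 and 1.03 FPKM at S7. These 4 genes were thus low in both organs, and each had a higher leaf value than either late seed value. A further, lower entry of CaCMT1 was listed at 0 in leaf and had 0.0793 FPKM at S6 and 0.178 FPKM at S7.

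The DRM genes encode methyltransferases of the type that sets new methylation guided by small RNAs. CaDRM2 had 6.53 FPKM in leaf, 21.5 FPKM at S6 and 25.3 FPKM at S7, with differences of 1.58 and 1.81. CaDRM1 had 7.91 FPKM in leaf, 11.2 FPKM at S6 and 13.5 FPKM at S7, within 2-fold at both stages. As deposited, both genes were higher in late seeds than in leaf at both stages, but with the same sum the smaller difference of CaDRM2 was 0.85, under the limit, and that of CaDRM1 turned to -0.09.

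Demethylases remove methylated cytosine by base excision. Of the 6 listed genes, 5 reached the minimum. At both stages 4 of these 5 (80%) were at least 2-fold higher than leaf, against 26.9% of all entries. None (0) of the 5 was at least 2-fold lower, against 29.0%. The minimum shaped these shares. Ca_17326 and Ca_17329 reached it through the seed stages only, with 0.352 and 0.378 FPKM in leaf, and the gene left out, Ca_07031, was lower in late seeds. The shares are therefore a description. Ca_17547 had 3.18 FPKM in leaf, 18.9 FPKM at S6 and 17.6 FPKM at S7. Ca_20137 had 1.56 FPKM in leaf, 17.3 FPKM at S6 and 12.04 FPKM at S7, and its further entry had 10.6 FPKM in leaf, 31.99 FPKM at S6 and 33.9 FPKM at S7. Both entries were thus higher in late seeds, but they differed before, since from S1 to S5 the first lay between 14.3 and 21.0 FPKM, while the further one had at most 1.99 FPKM and was listed at 0 at S5.

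Ca_17326 had 0.352 FPKM in leaf, 7.29 FPKM at S6 and 4.11 FPKM at S7. Ca_17329 had 0.378 FPKM in leaf, 3.93 FPKM at S6 and 2.13 FPKM at S7. Ca_08414 had 1.63 FPKM in leaf, 3.41 FPKM at S6 and 3.47 FPKM at S7, so that both stages were higher but within 2-fold on this scale. Its further entry passed the limit at both stages as deposited, with 1.75 FPKM in leaf, 5.19 FPKM at S6 and 4.73 FPKM at S7, but under none of the 3 scalings. With the same sum, the smaller difference of Ca_17329 was 0.80, under the limit, and the 5 genes stayed above leaf under all 3 scalings. The sixth gene, Ca_07031, stayed under the minimum and was lower at both late stages. It had 0.371 FPKM in leaf, was listed at 0 at S6 and had 0.0165 FPKM at S7.

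The 13 further genes that the study names included members of auxin and cytokinin pathways and of DNA replication. The study picked them for CG hypermethylation and higher expression in JGK 3 seeds than in a small-seeded cultivar, at S3 and/or S5. They were thus chosen partly by expression in these seed libraries, and their direction is no independent evidence. Of the 13, 9 reached the minimum, Ca_06937 through the seed stages only and Ca_12014 through leaf only. At both stages 3 of the 9 (33.3%) were at least 2-fold higher, against 26.9% of all entries. Lower at both were 2 (22.2%), against 29.0%, so that the counts of so few genes lay near those shares. The most different pair was of the GH3 family, whose enzymes join hormones such as auxin to amino acids. Ca_06937 had 0.0679 FPKM in leaf, 47.7 FPKM at S6 and 49.3 FPKM at S7, and Ca_23631 had 19.7 FPKM in leaf, 1.29 FPKM at S6 and 1.86 FPKM at S7. These GH3 genes thus went opposite ways, each in the same direction at both stages.

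Regulatory genes were also divided. The homeobox gene Ca_04491 had 1.05 FPKM in leaf, 10.4 FPKM at S6 and 11.2 FPKM at S7. Ca_09981, which encodes an RNA recognition motif protein, had 3.83 FPKM in leaf, 12.1 FPKM at S6 and 16.6 FPKM at S7, with a smaller difference of 0.75 under the same sum. The dof zinc finger gene Ca_09238, of a family of plant transcription factors, was lower at both stages, with 11.3 FPKM in leaf, 3.58 FPKM at S6 and 4.33 FPKM at S7. The type-B response regulator Ca_14780, of the cytokinin pathway, had 11.3 FPKM in leaf, 4.44 FPKM at S6 and 5.84 FPKM at S7, and passed the limit at S6 (-1.18) but not at S7 (-0.85).

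Replication genes were low in leaf and in late seeds alike. The minichromosome maintenance genes, subunits of the replicative helicase family, had at most 1.56 FPKM in leaf and at most 3.77 FPKM at S6 and S7, whereas Ca_09549 had 63.9 FPKM at S1. CDC6 (Ca_15618), which loads that helicase, had 0.149 FPKM in leaf, 0.0397 FPKM at S6 and 0.0834 FPKM at S7. The auxin response factor gene Ca_10748 was similar, with 118 FPKM at S1 but 0.217 FPKM in leaf, 0.509 FPKM at S6 and 0.884 FPKM at S7. On log2(FPKM + 1), none of these genes was 2-fold from leaf at both stages. This scale understates differences of such low values, as those of Ca_10748 and CDC6 in leaf and late seeds.

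**Figure D5:**
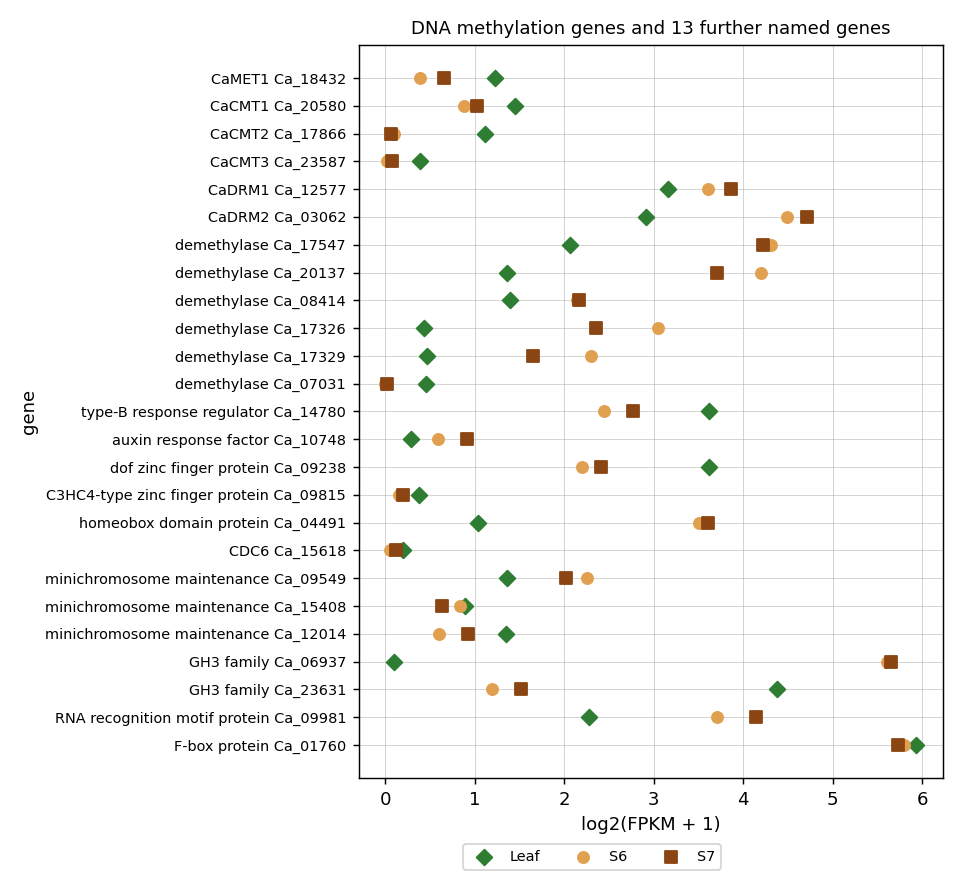
Levels of the 12 DNA methylation genes and the 13 further genes named by the study in leaf, at S6 and at S7, as log2(FPKM + 1), with 1 line per gene and its highest entry where it has several. The largest distance from leaf is that of the GH3 gene Ca_06937 (0.0679 FPKM in leaf and 49.3 FPKM at S7), and the other GH3 gene lies on the opposite side.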

How the data were processed

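RNA-seq of leaf, S6 and S7 was analysed, with S1 to S5 as a description. According to the labels and the published methods, reads were quality-filtered (NGS QC Toolkit) and aligned to the kabuli genome (TopHat), and the authors deposited FPKM values from Cufflinks in 1 column per group. How 3 samples were pooled and how groups were scaled is not given in the sources used here. Groups came from sample titles. Tables were joined by the first column and by the order of repeated identifiers, and entries without a gene identifier (7268 of 35234) were left out. Seed and leaf were subtracted as log2(FPKM + 1), the minimum was 1 FPKM and the limit 2-fold, in Python 3.11.15 with pandas 2.3.3. Pooled columns allow no test. The limma test intended for single samples was not run. The calculation was checked on simulated data. Listed identifiers were taken at the entry with the highest mean over all 8 groups.

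The named genes were the 10 largest differences in each direction among entries above 0, the 3 highest entries listed at 0 in leaf or in late seeds, the 5 most abundant entries of each group, the 12 methylation genes and 13 genes named by the study, the 3 most different members of each list in each direction, up to 5 entries with opposite directions, the 3 most abundant steady entries and 1 entry on either side of each limit. Differences were ranked by the smaller of both stages. From the lists, some of these genes are shown. Members and lists were chosen with earlier results of these data known. Other pseudocounts (0.1 and 5), minimums, limits, scalings, single stages, list memberships and treatments of repeated identifiers were tried as alternatives, and the matching of lists to single identifiers was added after seeing the data.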

Additional observations from a re-analysis of the deposited data

Results flagged for a closer look

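For 5 entries the difference from leaf was at least 2-fold at both stages but in opposite directions, the most different of 10 such entries. These differences between stages were not tested, since there is 1 pooled value per stage. The entry joining Ca_01171 and Ca_01173 had 57.4 FPKM in leaf, was listed at 0 at S6 and had 10060.1 FPKM at S7, so that its difference from leaf was higher by 13.30 at S7. Ca_12999 had 425 FPKM in leaf, 20870.5 FPKM at S6 and a value listed at 0 at S7 (S7 minus S6, -14.35). Ca_02986 had 298 FPKM in leaf, 11436 FPKM at S6 and a value listed at 0 at S7 (-13.48), and Ca_02987, the next identifier, had 31.1 FPKM in leaf, 3588 FPKM at S6 and a value listed at 0 at S7 (-11.81). These 4 entries thus rest on a value listed at 0 at a single stage. Ca_03416 was above 0 in all 3 groups, with 7.66 FPKM in leaf, 35.4 FPKM at S6 and 0.878 FPKM at S7 (-4.28), after 1468 FPKM at S5.

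Signal was also present in entries without a gene identifier, which the comparison did not use. Of 2929 such entries with at least 1 FPKM, 772 were at least 2-fold higher than leaf at both S6 and S7 and 733 at least 2-fold lower. Among the 17001 entries with an identifier, 26.9% were higher and 29.0% lower at both stages, a broadly similar proportion. They held 3.45% of the summed FPKM of all entries in leaf, 2.99% at S6 and 3.04% at S7.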

How the results depend on the processing

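With a 4-fold limit, 2336 entries were higher and 3108 lower than leaf on the mean, and 2043 were higher and 2877 lower at both stages. Scaled to the same sum, 3013 entries were higher on the mean and 2608 at both stages. With expression set at 5 FPKM, 1597 entries were expressed at both seed stages and not in leaf, and with a level under 0.1 FPKM required for absence, 283 were late seed only and 762 leaf only. The fewer genes under a stricter limit follow from the limit itself, and which scaling is closest to the RNA content of the organs was not tested. The other alternatives kept these counts within 1.5 times. Under the same sum 6 named identifiers (Ca_13501, Ca_03062, Ca_20137, Ca_08414, Ca_17329 and Ca_09981; further entries for Ca_20137 and Ca_08414) were no longer 2-fold higher at both stages. Under the upper quartile and the median ratio 1 was not (Ca_08414, further entry), and 0 of those past the limit reversed. Some named entries within 2-fold did change sign with the same sum, among them CaDRM1 (-0.09) and Ca_07038 (-0.73). For members with a differentially methylated region, the median difference less that of all entries was -0.00 for desiccation and -0.13 for grain filling, against 0.29 and -0.47 for all members. No paired analysis was possible because each group is 1 pooled column that carries no replicate number, and leaving out single samples was not possible for the same reason. The depth behind each value is unknown, so the precision of low values is unknown too.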
